A study of Mus musculus with 8 samples.

Results

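Lyz1 and Lyz2 are the lysozyme genes of the mouse that lie side by side on chromosome 10, and their mRNAs were followed in FURIN KO and WT peritoneal macrophages before and during stimulation with lipopolysaccharide (LPS). All gene probes of the array whose RefSeq transcript belongs to either gene were taken, which gave 2 probes, 1 for each gene, out of 55681 distinct gene probes and 2 genes out of 20887 with a name. KO RNA came from LysMCre-fur(fl/fl) mice, in which Cre recombinase is expressed from the Lyz2 (LysM) locus and deletes floxed fur (Furin, a proprotein convertase) in myeloid cells. WT RNA came from littermates, and all mice were on the C57BL/6 background. Both genotypes were sampled unstimulated (0 h) and after 1, 4 and 24 h of LPS at 1 μg/ml, with 2 biological replicates each, and each of the 8 Agilent 2-colour arrays held 1 KO and 1 WT sample of the same time and replicate number. KO RNA was labelled with Cy5 in replicate 1 and with Cy3 in replicate 2, so that replicate and dye orientation are the same factor. Adherent cells had been kept in culture for 24 h, washed, and left for 1 h in new medium before LPS was added. Age, the number of mice behind a replicate, the number of Cre alleles, and whether the WT littermates carried floxed fur or Cre are not given in the sources used here. A Cre-bearing Lyz2 allele and the loss of Furin came together in the KO groups, and their parts in any KO/WT difference cannot be told apart.

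Lysozyme is an antibacterial enzyme that cleaves the sugar backbone of peptidoglycan, the polymer of bacterial cell walls. The mouse has a tandem pair of such genes: Lyz2 encodes lysozyme M of macrophages and other myeloid cells, and Lyz1 encodes lysozyme P, best known from the Paneth cells of the small intestine. In LysMCre mice the Cre sequence was placed at the start of the Lyz2 coding region, and an allele that carries it makes Cre in place of lysozyme M.

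The stretches just before the transcription starts are shown because the neighbouring genes are compared throughout, and because their nearest sequence is shared. The 250 bases before each start come from RefSeq on GRCm38.p6, both on the minus strand, at chr10:117292869-117293118 for Lyz1 and chr10:117282273-117282522 for Lyz2. Both are written 5′ to 3′, ending at the base before the start, and capitals mark bases that differ from the other gene or have no partner in the alignment.
Lyz1: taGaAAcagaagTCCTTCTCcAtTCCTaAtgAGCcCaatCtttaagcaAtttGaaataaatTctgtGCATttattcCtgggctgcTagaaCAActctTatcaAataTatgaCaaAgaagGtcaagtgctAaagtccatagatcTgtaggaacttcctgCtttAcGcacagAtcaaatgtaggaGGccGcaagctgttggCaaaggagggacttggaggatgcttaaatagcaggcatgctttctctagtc
Lyz2: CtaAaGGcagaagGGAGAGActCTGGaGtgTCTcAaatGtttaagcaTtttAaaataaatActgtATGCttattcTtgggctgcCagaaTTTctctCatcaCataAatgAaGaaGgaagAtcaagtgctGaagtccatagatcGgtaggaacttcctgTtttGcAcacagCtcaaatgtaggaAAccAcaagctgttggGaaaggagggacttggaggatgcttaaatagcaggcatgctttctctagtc
Of 248 aligned bases 200 are identical (80.6%), and the last 50 bases before the start are the same in both genes. The letters GAGGAA, the core of many binding sites of the myeloid factor PU.1, occur in neither window on either strand, whereas 23.3% of the 32851 RefSeq windows of the same length hold them. TATAAA is absent from both windows and present in 12.4% of all. The pattern TTNNGNAA, of the kind bound by C/EBP factors, occurs 1 time in each window, at 209 bases before the start of Lyz1 and 55 bases before the start of Lyz2, and 36.8% of all windows hold it. A match, or none, describes the letters only.

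Furin, the deleted gene, had log2 KO/WT ratios below 0 in unstimulated cells (-0.61 and -0.84 for replicates 1 and 2), after 1 h of LPS (-0.56 and -0.53) and after 24 h (-0.58 and -0.68). After 4 h the ratios were 0.00 and 0.33, and the 4 h RNA labelled KO was thus not lower in Furin. The paper reports Furin mRNA as nearly lost from KO macrophages in its own measurement, a larger loss than this probe read at any time. Whether the Furin probe lies inside the deleted part of the gene was not established, so it checks the labels only in part. Means over the time points are given with and without the 4 h arrays. All 8 arrays lay on 1 slide and carry the same scan time, with the 0 and 1 h arrays in one row of the slide and the 4 and 24 h arrays in the other. Between 43.8% and 51.3% of gene spots were well above background in a channel. No gene spot was saturated. Of 7 macrophage markers measured 6 were well above background in all 16 channels, and Cd163 in none. Of 10 neutrophil markers 5 (Csf3r, Camp, Mmp9, S100a8 and Mmp8) were well above background in all 16 channels, Ltf in 1, and S100a9, Ngp, Retnlg and Cxcr2 in none. With 2 arrays a time point, precision is limited by the array number. The replicates are described as biological, from independent experiments, and the animals behind each are not given, so p-values measure the spread between these samples.

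Both probes were bright. The median signal of the Lyz1 spot lay between 17517 and 155125 intensity units, and that of the Lyz2 spot between 12573 and 400011, on arrays whose scanner saturates at 777866 units or more. Each was well above background in all 16 channels. The background around the Lyz2 spot was flagged as an outlier in both WT channels at 4 h, and these values were kept. The probe sequences are not part of the files used here, and how far either probe also binds the mRNA of the other, closely related gene was not tested.

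Lyz2 was brighter in WT than in KO at every time point, and it fell with time in LPS in both genotypes. In unstimulated WT cells its level, as log2 normalized intensity, was 18.17 and 17.71 in replicates 1 and 2 (mean 17.94 ± 0.33, SD, n = 2), against 17.10 and 16.96 in KO (17.03 ± 0.10). After 1 h it was 18.17 and 17.68 in WT (17.92 ± 0.34) and 17.08 and 16.80 in KO (16.94 ± 0.20). Both KO values lay below both WT values at each of these times. After 4 h the WT levels were 17.27 and 16.89 (17.08 ± 0.27), and those of the RNA labelled KO were 16.23 and 15.76 (mean 15.997, SD 0.33). After 24 h they were 16.08 and 15.62 in WT (15.85 ± 0.33) and 14.23 and 14.01 in KO (14.12 ± 0.16). The KO and WT samples of Lyz2 did not overlap at any of the 4 times. With 2 samples on each side this can arise at a single time without a difference, and its share over all genes was not computed. From high to low the order was WT 0 h, WT 1 h, WT 4 h, KO 0 h, KO 1 h, KO 4 h, WT 24 h and KO 24 h. Neighbours in this order had overlapping replicates except at 3 steps, from WT 1 h to WT 4 h (means 0.84 apart), from KO 1 h to KO 4 h (0.94) and from WT 24 h to KO 24 h (1.73). The replicates of unstimulated KO cells thus overlapped those of WT cells after 4 h of LPS.

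Lyz1 held a narrower range, and KO and WT samples stood apart mainly at 24 h. In unstimulated cells its log2 level was 16.61 and 16.46 in WT (16.54 ± 0.11) and 16.56 and 16.69 in KO (16.63 ± 0.09), with overlapping replicates. After 1 h it was 16.55 and 16.47 in WT (16.51 ± 0.06) and 16.31 and 16.38 in KO (16.35 ± 0.04). The KO values were the lower ones by a small margin here. After 4 h the WT levels were 16.26 and 16.55 (16.40 ± 0.21) and those of the RNA labelled KO were 16.35 and 15.94 (16.14 ± 0.29), again overlapping. After 24 h they were 16.09 and 15.68 in WT (15.88 ± 0.29) and 14.95 and 14.47 in KO (14.71 ± 0.34). From high to low the order was KO 0 h, WT 0 h, WT 1 h, WT 4 h, KO 1 h, KO 4 h, WT 24 h and KO 24 h, and the replicates of all neighbours in it overlapped except those of WT 24 h and KO 24 h, whose means were 1.17 apart.

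**Figure D1:**
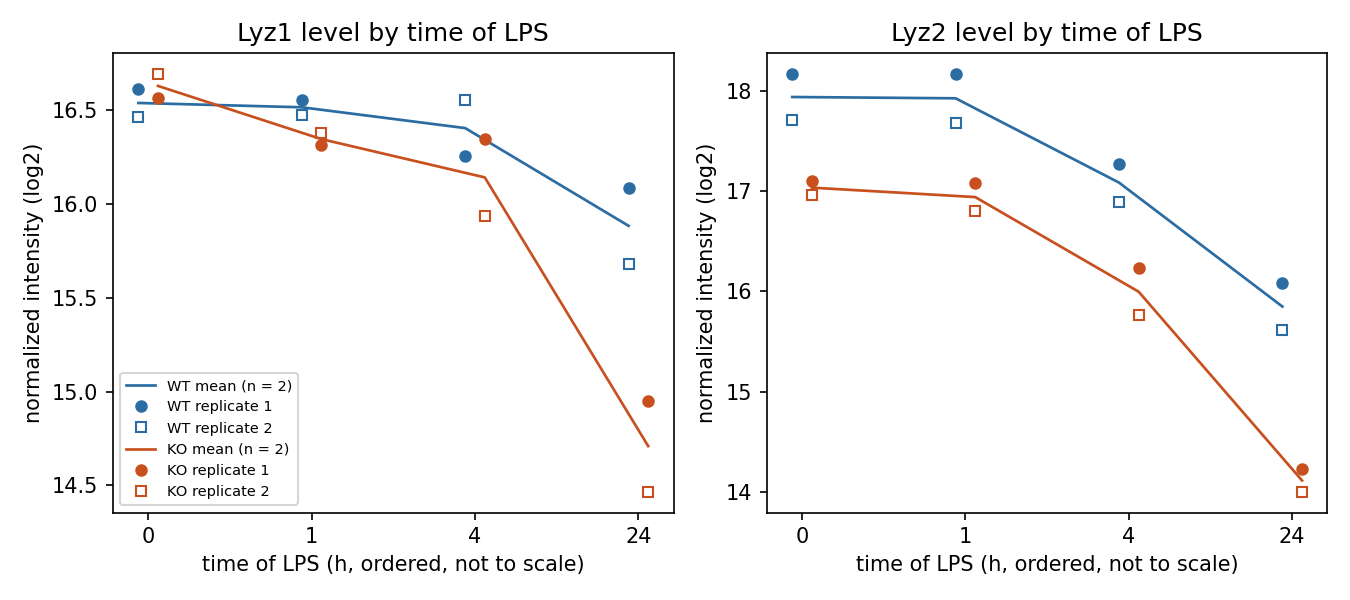
Log2 normalized intensity of Lyz1 (left) and Lyz2 (right) in WT and KO macrophages against the time of LPS in hours; points are single samples (2 per genotype and time), lines join the means, and each panel has its own vertical scale because different probes are not comparable in level. KO and WT samples of Lyz2 stand apart at all 4 times, and those of Lyz1 overlap at 0 and 4 h and are 1.17 apart in their means at 24 h.

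The comparison of KO with WT at each time asks whether macrophages of the KO mice carry less lysozyme mRNA. Lyz2 was lower in KO on 8 of 8 arrays, while 1.45% of the 36927 genes and transcripts tested were below 0 on all arrays. Its log2 KO/WT ratios were -1.06 and -0.74 unstimulated, -1.09 and -0.88 after 1 h, -1.04 and -1.13 after 4 h, and -1.85 and -1.61 after 24 h. The mean over the 4 time points was -1.18 (standard error 0.06, 95% interval -1.31 to -1.05), so that the KO signal was 44.3% of WT. In limma's fit over all 36927 the adjusted p of this mean was 0.000509, in a comparison in which 0.333% of those tested were called lower (0.596% in either direction) at an adjusted p under 0.05. With ratios of Agilent's processed signals, taken without limma's background, loess and quantile steps, the mean was -1.32 and was not called (adjusted p = 0.085). Lyz2 was the third lowest of the 36927 by this mean. Without the 4 h arrays the mean was -1.21 (standard error 0.07, adjusted p = 0.00841), where 0.103% were called. An exact two-sided sign-flip test over the 8 arrays gave p = 0.00781, the smallest that 8 arrays allow, and 0.0117 after Benjamini-Hochberg adjustment over the 3 such tests made. Both this test and limma's fit with no replicate term take the 8 arrays as independent. Arrays of one replicate number, however, share a dye orientation and deviated together across genes.

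At single time points, in the same fit with no replicate term, Lyz2 passed the threshold at 24 h, with a mean ratio of -1.73 (standard error 0.11, 95% interval -1.99 to -1.47, adjusted p = 0.00654), a KO signal of 30.1% of WT. There 4 of 36927 were called lower (0.0108%) and 8 in either direction (0.0217%). With Agilent's processed signals the 24 h ratio was -1.69 and was not called (adjusted p = 0.415). With a single 24 h array left, and its spread taken from the other times, the adjusted p was 0.0537 without replicate 1 (ratio -1.61) and 0.0823 without replicate 2 (ratio -1.85). The mean ratio was -1.09 at 4 h (adjusted p = 0.057, 47.1% of WT), where 0.0108% were called, all of them higher. At 0 h it was -0.90 (95% interval -1.16 to -0.64, adjusted p = 0.0999, 53.5% of WT) and at 1 h -0.98 (adjusted p = 0.193, 50.6% of WT). At 0 h and 1 h limma in this fit called none of the 36927 (0%), and 2137 and 2053 of them had an unadjusted p under 0.05. With the replicate number, and so the dye orientation, as a block, the same Lyz2 means were called at 0 h (adjusted p = 0.00241), 1 h (adjusted p = 0.00528) and 4 h (adjusted p = 0.00197), in limma fits that called 399, 218 and 209 of the 36927 in place of 0, 0 and 4. By size alone the Lyz2 ratio ranked 15th from the lowest at 0 h and at 1 h, 4th at 4 h and 3rd at 24 h.

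The quantile step, which gives all channels the same distribution, bears on Lyz2 at 0 and 1 h. In the WT channels of replicate 1 at both times the Lyz2 spot was the brightest of the channel and received the top value of that distribution, 18.17, above which no difference can be seen. Under loess normalization alone the Lyz2 ratios were -1.35 and -1.07 unstimulated, -1.12 and -1.03 after 1 h, -0.89 and -1.26 after 4 h, and -1.74 and -1.59 after 24 h. All 8 were below 0, and over all scalings tried the 0 h mean lay between -1.29 and -0.89.

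**Figure D2:**
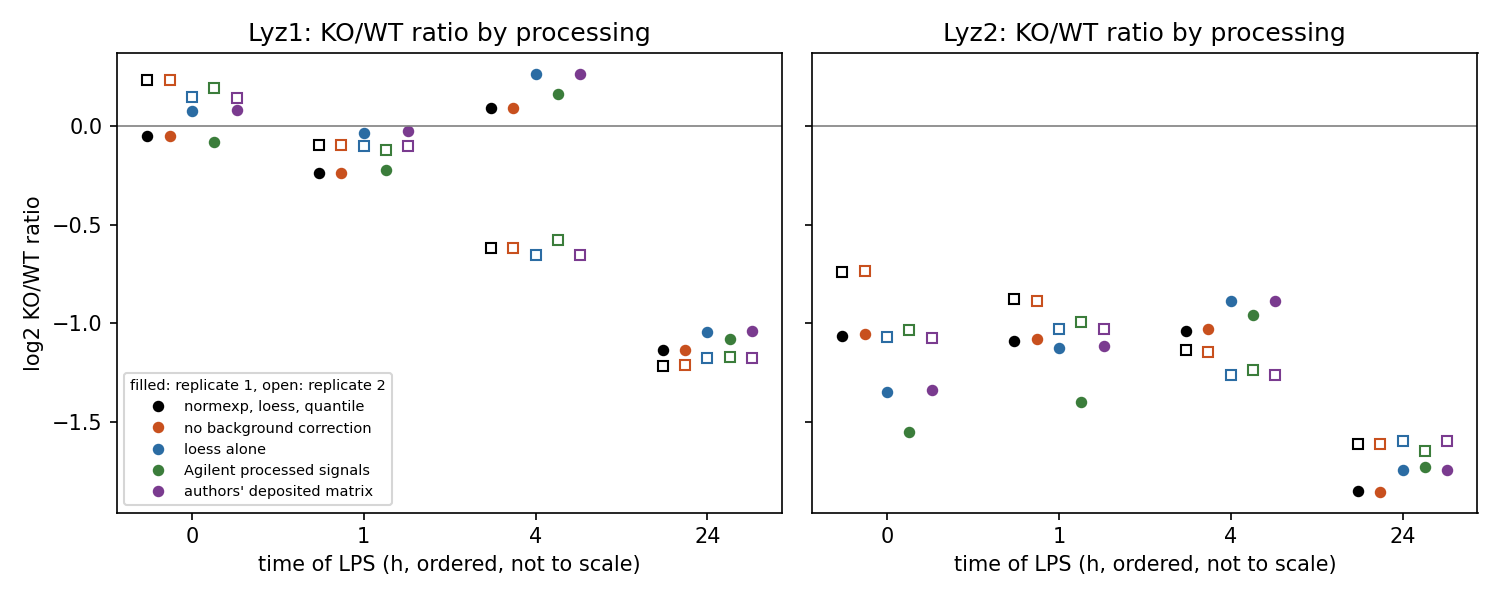
Log2 KO/WT ratio of each array for Lyz1 (left) and Lyz2 (right) against the time of LPS in hours, under 5 ways of scaling the intensities (colours; filled points are replicate 1, open points replicate 2). Every Lyz2 ratio is below 0 in all of them, and the 0 h ratio of replicate 1 ranges most widely, from -1.05 without background correction to -1.55 with Agilent's processed signals.

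For Lyz1 the log2 KO/WT ratios were -0.05 and 0.23 unstimulated, -0.24 and -0.10 after 1 h, 0.09 and -0.62 after 4 h, and -1.13 and -1.21 after 24 h. Both 24 h arrays lay far below the rest, and 6 of 8 arrays were below 0. The 24 h mean of -1.17 (standard error 0.16, 95% interval -1.53 to -0.82), a KO signal of 44.3% of WT, had an adjusted p of 0.0859 and was the 10th lowest of the 36927. In the fit of all 8 arrays with no replicate term it did not pass the threshold. It passed without the 4 h arrays (the same -1.17, adjusted p = 0.0311, where 0.0271% were called). Its standard error was then 0.10, as the shared spread no longer held the unlike Lyz1 ratios of 4 h. Leaving out either 4 h array alone gives this same test, since a single 4 h array adds nothing to the spread. At 0 h the mean was 0.09 (95% interval -0.27 to 0.45), at 1 h -0.17 (-0.53 to 0.19) and at 4 h -0.26 (-0.62 to 0.09), each with an adjusted p of 1. These intervals do not reach the Lyz2 means of the same times. The mean over the time points was -0.38 (standard error 0.08, adjusted p = 0.0857), and -0.42 without the 4 h arrays (adjusted p = 0.0771). Without replicate 1 of 4 h alone it was -0.47 (adjusted p = 0.0488). With the replicate block limma called Lyz1 at 24 h (adjusted p = 0.00488, with 214 of the 36927 called in place of 8) and in the mean (adjusted p = 0.0106, with 2239 called in place of 220). The exact two-sided sign-flip test over 8 arrays gave p = 0.102 (0.102 adjusted).

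**Figure D3:**
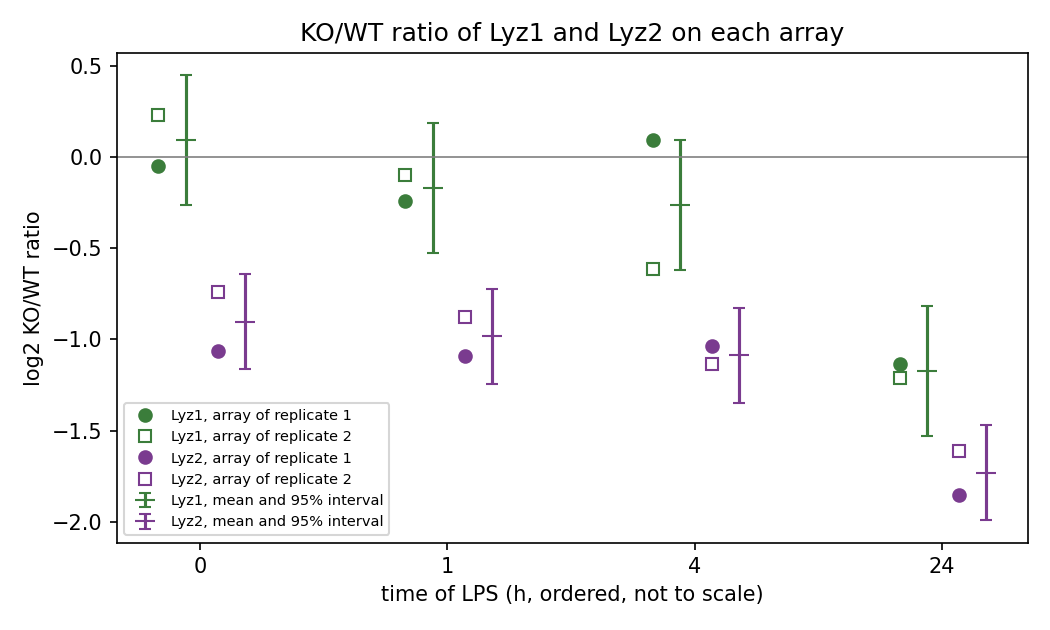
Log2 KO/WT ratio of Lyz1 (green) and Lyz2 (purple) on each of the 8 arrays against the time of LPS in hours; filled points are replicate 1, open points replicate 2, and bars are limma's means with 95% intervals. Lyz2 lies below 0 on all 8 arrays and below Lyz1 on each of them, and Lyz1 reaches -1.17 at 24 h.

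The neighbours differed from each other in how far KO departed from WT. On the same array, the Lyz1 ratio exceeded the Lyz2 ratio by 1.01 and 0.97 on the log2 scale in unstimulated cells, 0.85 and 0.78 after 1 h, 1.13 and 0.52 after 4 h, and 0.72 and 0.40 after 24 h. The difference was above 0 on 8 of 8 arrays, with a mean of 0.80 ± 0.25 (SD, n = 8). An exact two-sided sign-flip test gave p = 0.00781 (0.0117 adjusted over the 3 tests), the smallest possible. It too takes the 8 arrays as independent. Without the 4 h arrays the mean was 0.79 and the exact p 0.0312, the smallest that 6 arrays allow. The difference shows unequal ratios at these probes.

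Whether the KO/WT ratio moved during LPS was tested as its change from 0 h. For Lyz1 the change at 24 h was -1.26 (standard error 0.22, 95% interval -1.77 to -0.76, adjusted p = 0.415), and for Lyz2 -0.83 (0.16, -1.20 to -0.46, adjusted p = 0.542). In limma's fit with no replicate term none of the 36927 passed the threshold for any change (0% at 1, 4 and 24 h). At an unadjusted p under 0.05 limma gave 1227 at 24 h, both members among them. With the replicate block the 24 h change was called for Lyz1 (adjusted p = 0.0368) and Lyz2 (adjusted p = 0.0416), with 78 called among the 36927. The Lyz2 change rests in part on the quantile step, and its smallest value over the other scalings was -0.39. At 1 h and 4 h the changes were -0.26 and -0.35 for Lyz1 and -0.08 and -0.18 for Lyz2, each with an adjusted p of 1, and those of Lyz2 were above 0 under loess alone (0.13 at both times).

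Both lysozyme mRNAs were lower after 24 h of LPS than in unstimulated cells, and Lyz2 also after 4 h. In WT cells Lyz2 stood at -0.01 on the log2 scale relative to 0 h after 1 h (adjusted p = 0.99), fell by 0.85 after 4 h (standard error 0.22, adjusted p = 0.00641) and fell by 2.09 after 24 h (0.22, adjusted p = 4.51e-06), when 23.5% of the unstimulated signal was left. The 1 h value is limited by the quantile step, which gave WT replicate 1 the same top value at 0 h and 1 h. Under loess alone that sample read 18.41 and 18.27, and the mean WT change at 1 h was -0.10 (adjusted p = 0.855). In KO cells it stood at -0.09 after 1 h (adjusted p = 0.915), fell by 1.04 after 4 h (adjusted p = 0.00154) and fell by 2.92 after 24 h (adjusted p = 1.97e-07), when 13.3% was left. Many genes moved with LPS: 5.19%, 19.3% and 16.8% of the 36927 were called lower in WT at 1, 4 and 24 h (8.55%, 34.7% and 30.3% in either direction), and 4.41%, 19.8% and 15.7% in KO (7.52%, 36% and 28.7%). The WT fall at 4 h was not called without replicate 1 of 0 h (-0.62, adjusted p = 0.105) or without replicate 2 of 4 h (-0.66, adjusted p = 0.0633).

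The change of Lyz1 in WT was -0.02 after 1 h (adjusted p = 0.978) and -0.13 after 4 h (adjusted p = 0.665), and it fell by 0.65 after 24 h (standard error 0.18, adjusted p = 0.0128, 63.5% left). That WT fall was not called under loess alone (-0.29, adjusted p = 0.397), without replicate 1 of 0 h (-0.58, adjusted p = 0.106) or without replicate 2 of 24 h (-0.45, adjusted p = 0.109). In KO it stood at -0.28 after 1 h (adjusted p = 0.495) and -0.49 after 4 h (adjusted p = 0.0514), and fell by 1.92 after 24 h (0.18, adjusted p = 2e-06, 26.4% left). The 4 h value in KO was called with the replicate block (adjusted p = 0.0403), without replicate 1 of 4 h (-0.69, adjusted p = 0.0173), and without either 24 h array (-0.49, adjusted p = 0.0256 in both cases). The difference between the genotypes in these falls is the change of the KO/WT ratio given above. Time in LPS and the row of the slide cannot be told apart for the 4 and 24 h arrays against the 0 h arrays, and each time point is compared with unstimulated cells only, since unstimulated cells kept for 24 h were not sampled. In RNA of a whole culture, fewer cells of a type and less RNA per cell cannot be told apart.

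**Figure D4:**
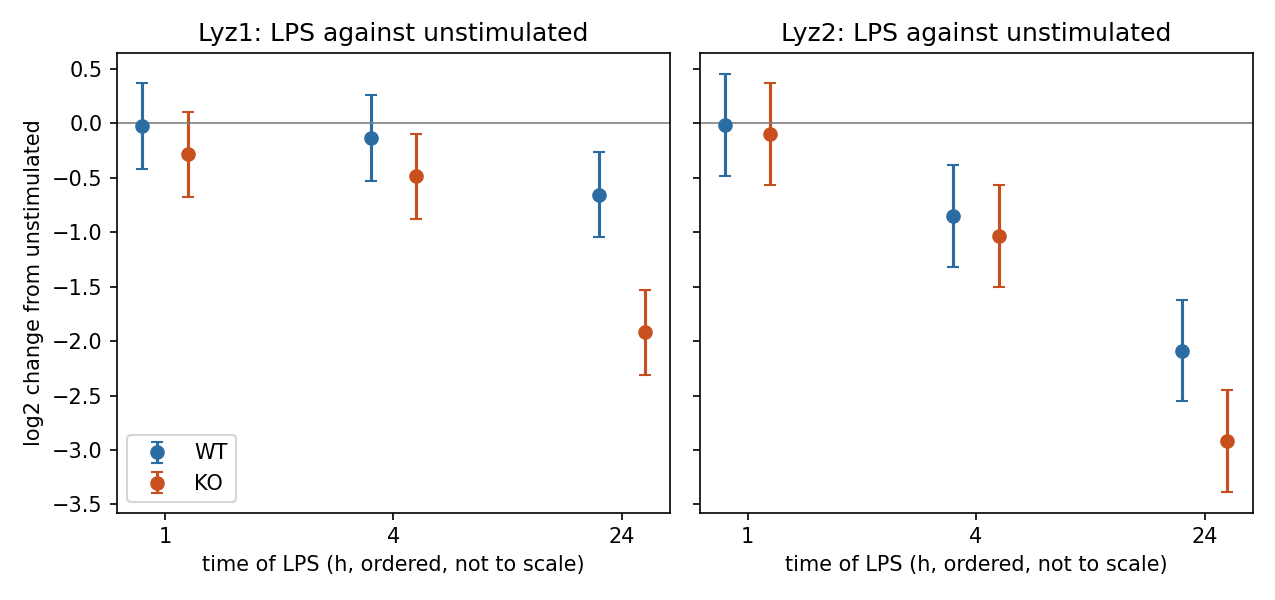
Log2 change from unstimulated cells after 1, 4 and 24 h of LPS in WT (blue) and KO (orange) for Lyz1 (left) and Lyz2 (right); points are limma's separate-channel estimates (2 samples per genotype and time) and bars 95% intervals. Lyz2 is lower from 4 h on in both genotypes, and at 24 h the estimates reach -2.92 in KO for Lyz2 and -1.92 for Lyz1.

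Lyz1 and Lyz2 varied together over the 16 channels, with a Pearson's r of 0.912 (0.970 over the 8 KO channels and 0.887 over the 8 WT channels), as a description of samples that share arrays and time points. Of 11010 named genes compared, those whose levels followed Lyz2 closely over the 16 channels included 2510009E07Rik (r = 0.958), Eci3 (0.954) and Eci2 (0.929), enoyl-CoA isomerases of fatty acid oxidation, and Ltbp3 (0.930), a latent TGF-β binding protein. The closest to Lyz1 were Ccdc166 (r = 0.924), Pdgfb (0.909), a chain of platelet-derived growth factor, Anpep (0.902), the aminopeptidase CD13, Apoe (0.902), apolipoprotein E, and Atp6ap2 (0.898), a subunit associated with the proton pump. None of the genes named here reached the size of the Lyz2 difference between genotypes: their mean log2 KO/WT ratios lay between -0.41 (Ltbp3) and -0.05 (Apoe).

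The genes around the pair on chromosome 10 show whether the KO/WT difference extended along the chromosome. Among the 10 measured genes on each side, none of 20 was called higher or lower in KO in limma's fit for the mean over the time points, or at any single time, and the 20 means ran from -0.11 to 0.31 with a median of 0.06, beside a median of 4.37e-05 over all 36927. At an unadjusted p under 0.05, limma's mean picked out 3 of the 20, and 3940 of the 36927. The nearest measured genes were 9530003J23Rik on the Lyz2 side, with a mean of 0.03, and Cpsf6, an mRNA cleavage factor subunit, on the Lyz1 side, with -0.02. Of the 20, 8 were well above background in no channel, 9530003J23Rik among them. Of those with the smallest p, 4933412E12Rik had a mean of 0.23 (adjusted p = 0.267), Cpm, a carboxypeptidase of the macrophage surface, 0.31, Rap1b, a small GTPase, 0.12, and Yeats4, a chromatin reader, -0.11. Among 100 genes on each side 3 of 200 were called higher, beside 0.263% of all, and none lower. Without the 4 h arrays again none of the 20 was called (median 0.05).

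**Figure D5:**
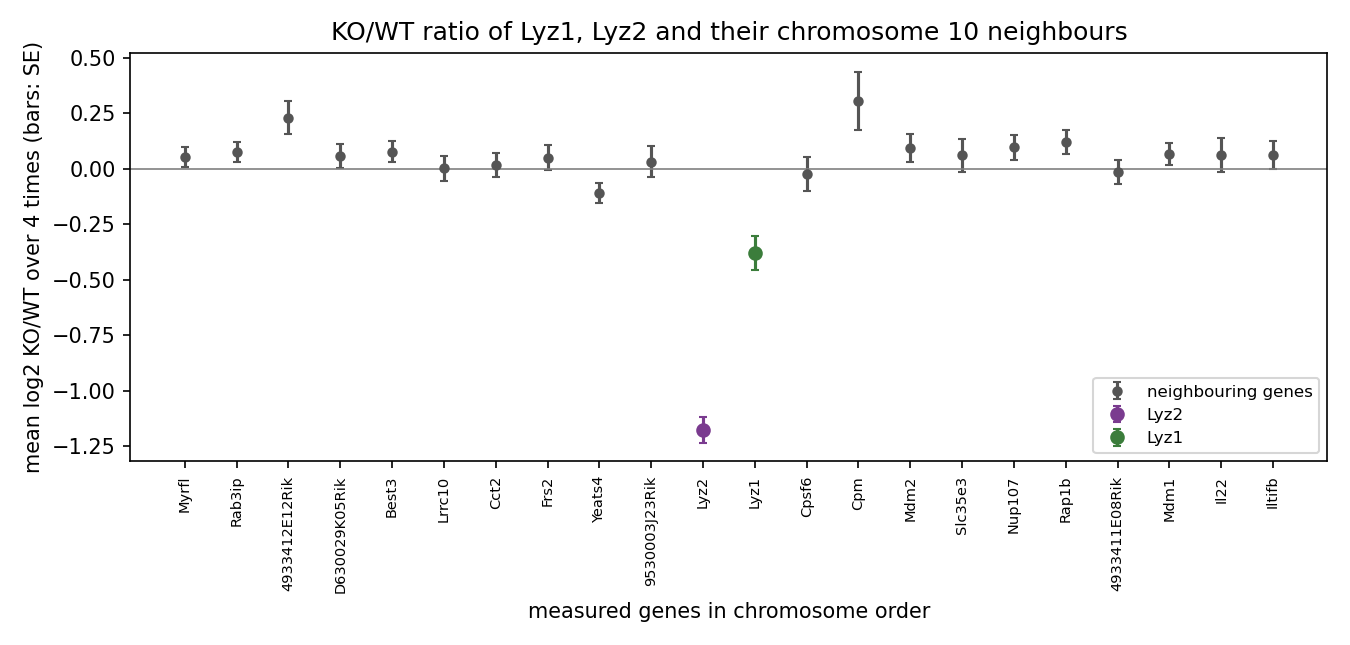
Mean log2 KO/WT ratio over the 4 time points (vertical axis; bars are standard errors, 8 arrays) for Lyz2, Lyz1 and the 10 measured genes on each side of the pair, in their order along chromosome 10. Lyz2 lies at -1.18 and Lyz1 at -0.38, and the 20 neighbours lie between -0.11 and 0.31.

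Other members of the lysozyme family were not called in KO against WT. Over the time points the means of the 8 further family genes measured ran from -0.10 to 0.11 with a median of -0.01, none was called, and limma gave 0 of the 8 an unadjusted p under 0.05. Of these, 4 (Lyg1, Spaca3, Spaca5 and Lyzl1) were well above background in no channel. Lyzl6, a lysozyme-like protein of the testis, had a mean of -0.10, Lyg2, a goose-type lysozyme, -0.04, Lalba, the milk protein alpha-lactalbumin, -0.03, and Lyzl4, another testis form, 0.11. Lyzl4 fell by 1.72 in WT after 4 h of LPS (adjusted p = 0.00173) and fell by 2.01 in KO (adjusted p = 0.000496), the only call among the 8 at that time, where 19.3% of all genes were called lower in WT and 19.8% in KO. After 24 h of LPS 1 of the 8 was called lower in WT, where 16.8% of all genes were called lower, and 2 in KO, where 15.7% were. Lalba fell by 0.45 in WT (adjusted p = 0.00138) and fell by 0.27 in KO (adjusted p = 0.0362), and Lyzl4 fell by 1.20 in KO (adjusted p = 0.0228), with -0.91 in WT (adjusted p = 0.0789).

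The other antibacterial proteins of phagocytes, 20 genes, held no call in limma's fit of KO against WT over the time points (median -0.03), where 0.596% of all were called, with 9 of 20 at an unadjusted p under 0.05, beside 3940 of all 36927. Those with the smallest p were Pglyrp1, a secreted peptidoglycan recognition protein, at 0.35 (above 0 on 8 of 8 arrays, as were 1.35% of all, adjusted p = 0.0606), Cybb, the catalytic subunit of the phagocyte oxidase, at -0.24 (adjusted p = 0.0759), Chil3, a chitinase-like protein, at 0.36 (adjusted p = 0.0898), and Slc11a1, a metal transporter of the phagosome, at -0.27 (adjusted p = 0.222). With 24 h of LPS this list split, with 6 of 20 called higher and 6 lower in WT and 6 and 5 in KO, beside 13.5% called higher and 16.8% lower among all genes in WT, and 13% and 15.7% in KO. Pglyrp1 fell by 1.09 in WT (adjusted p = 1.22e-05) and fell by 1.45 in KO (adjusted p = 9.38e-07). Chil3 fell by 0.71 in WT (adjusted p = 0.0402) and fell by 1.33 in KO (adjusted p = 0.000714), and Cybb fell by 0.46 in WT (adjusted p = 0.00813), with -0.22 in KO (adjusted p = 0.199).

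Genes that sense or take up fragments of peptidoglycan, the substrate of lysozyme, also held no call in limma's fit of KO against WT (0 of 15, median 0.08, 5 at an unadjusted p under 0.05, beside the same 3940 of 36927). The transporter Slc15a2 had the largest mean ratio, 0.57 (above 0 on 8 of 8 arrays, adjusted p = 0.0701), the cytosolic receptors Nod1 and Nod2 had 0.22 and 0.16, and Pglyrp2, an amidase, 0.14. After 24 h of LPS 3 of the 15 were called higher and 5 lower in WT, and 4 and 6 in KO, beside 13.5% higher and 16.8% lower among all genes in WT and 13% and 15.7% in KO. Nod2 rose by 1.94 in WT (adjusted p = 1.98e-07) and by 1.87 in KO (adjusted p = 3.12e-07), and Nod1 by 0.65 in KO (adjusted p = 0.0056), with 0.11 in WT (adjusted p = 0.699).

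Of 12 transcription factors of myeloid cells limma called none in KO against WT (median 0.04, 2 at an unadjusted p under 0.05, again beside 3940 of 36927). Cebpa, encoding C/EBPα, had a mean ratio of -0.45 and was below 0 on 8 of 8 arrays (adjusted p = 0.0544). Klf4, a factor of monocyte differentiation, had 0.31 (adjusted p = 0.0772), Maf 0.23 and Cebpe 0.09. Cebpa fell by 4.08 after 24 h of LPS in WT (adjusted p = 2.51e-10) and fell by 4.47 in KO (adjusted p = 1.18e-10). Klf4 fell by 1.16 in WT and fell by 1.23 in KO (adjusted p = 3.02e-06 and 1.94e-06), and Maf rose by 0.84 and 1.26 (adjusted p = 0.0259 and 0.00206). In all, 3 of the 12 were called higher and 5 lower in WT, where the shares of all genes were 13.5% and 16.8%, and 3 and 4 in KO, where they were 13% and 15.7%.

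Sums of cell type markers differed between KO and WT at some times, in either direction. With 2 samples on each side such sums can stand apart without a difference. No share over all genes was computed for them, and they were not tested. The summed intensity of the 7 macrophage markers measured lay between 319722 and 349038 in WT and 312877 and 321911 in KO at 0 h, where the groups overlapped. It was lower in both KO samples at 1 h (329738 to 343015, against 347156 to 435708 in WT) and at 24 h (144586 to 161465, against 183345 to 219982). At 4 h it was higher in both samples labelled KO (287834 to 341689, against 239480 to 285517). A sum of intensities gives most weight to the brightest probes, here Csf1r, Cd14 and Adgre1, and the members did not move as one. At 4 h the log2 KO/WT ratio was 0.62 for Cd14, an LPS co-receptor that was itself called higher after 4 h of LPS (1.52 in WT, adjusted p = 0.000288). The ratio at 4 h was 0.57 for Fcgr1, a receptor for IgG, and 0.25 for Itgam. It was -0.53 for Csf1r, -0.33 for Mertk, and 0.01 for Adgre1 and Cd163. Among the 7 markers Csf1r, the receptor for macrophage colony-stimulating factor, was called lower in KO over the time points (-0.41, below 0 on 8 of 8 arrays, adjusted p = 0.0189). Fcgr1 had the largest mean ratio of the 7, 0.63 (above 0 on 6 of 8 arrays), and was not called (adjusted p = 0.253). In the peritoneal macrophage lists Itgax, the integrin CD11c, was called lower (-0.39, adjusted p = 0.0253). Icam2, an adhesion molecule of large peritoneal macrophages, was called higher (0.34, adjusted p = 0.0264). The other markers of large peritoneal macrophages had means of -0.29 (Timd4), -0.08 (Vsig4), 0.04 (Prg4) and 0.10 (Gata6), without a call. In the list that holds Itgax, Ccr2 had 0.26 (above 0 on 8 of 8 arrays, adjusted p = 0.0991), Irf4 0.06 and H2-Ab1 0.03. None of Csf1r, Itgax and Icam2 was called without the 4 h arrays. Adgre1, a surface marker of mouse macrophages, had a mean ratio of 0.00. None of the 10 neutrophil markers measured was called, with means from -0.24 to 0.00, nor of the 7 of B cells, 8 of T and NK cells, 6 of mast cells and 10 of mesothelial cells and fibroblasts, and in the same order limma gave 3, 3, 1, 4 and 1 of them an unadjusted p under 0.05, beside 3940 of all 36927. Of the macrophage lists it gave 3 of 7 for macrophages in general, 2 of 5 for large and 2 of 4 for small peritoneal macrophages. The summed intensity of the neutrophil markers was lower in both KO samples at 0 h (40389 to 41421, against 49655 to 51957 in WT), 1 h (35126 to 37197, against 38395 to 43947) and 4 h (29926 to 33132, against 34210 to 36221), and overlapped at 24 h. On average its brightest probe was Csf3r, with log2 KO/WT ratios of -0.36, -0.16 and -0.16 at 0, 1 and 4 h. The summed intensity of the mast cell markers was higher in both KO samples at 1 h (10839 to 14129, against 10267 to 10298) and 24 h (3782 to 3934, against 1835 to 3214). The sum of the B cell markers was also higher in both at 1 h (94632 to 103928, against 62851 to 83469) and 24 h (43348 to 49519, against 39521 to 41300), and that of T and NK cell markers at 24 h (12363 to 12569, against 10524 to 11861). Markers of mesothelial cells and fibroblasts summed higher in both KO samples at 0 h (1162 to 1338, against 1130 to 1149) and 24 h (2977 to 3082, against 2434 to 2528) and lower at 4 h (1140 to 1360, against 1420 to 1596). For large peritoneal macrophages the sum was lower in KO at 24 h (15055 to 15492, against 15951 to 18066), and in all other cases the groups overlapped. The part of cell composition in the Lyz1 and Lyz2 ratios was not tested.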

How the data were processed

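The authors scanned 2-colour arrays and extracted each spot's median intensity with Agilent Feature Extraction 10.7.3. They deposited these raw intensities per channel and, in a separate matrix, normalized log2 ratios of Cy5 to Cy3, used here only as an alternative. Here limma 3.58.1 (R 4.3.3, statmod 1.5.0) was used as follows: normexp (offset 50), loess within arrays with control spots at weight 0, and quantile normalization between arrays. Spots with feature outlier flags were left out, and background outlier flags were not used. Probes were named through RefSeq identifiers. For a gene with several probes the brightest was taken. Of 37018 genes and transcripts, 36927 with mean log2 intensity of at least 6 and complete values were tested (20836 named).

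KO/WT log2 ratios were fitted with lmFit and eBayes, with 1 coefficient per time (4 residual degrees of freedom). LPS effects were tested by separate-channel analysis (within-spot correlation 0.120, from 5000 genes). Benjamini-Hochberg adjustment ran over all 36927, and an adjusted p under 0.05 counted as called. From each list, the 4 genes with the smallest unadjusted p for the mean KO/WT ratio are named. Promoter windows were aligned with match 1, mismatch -1 and gap -2. Members and lists were chosen with earlier results of these data known. The fits were tested on simulated data. Samples were assigned to time points by their titles, as the growth protocol in the labels gives 4 h for all. One gene among those most alike to Lyz2 is not reported here.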

Additional observations from a re-analysis of the deposited data

How the results depend on the processing

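Lyz2 stayed below WT in KO at every time point and in the mean under every alternative run, and Lyz1 did so at 24 h. Over the alternatives other than leaving out an array, the Lyz2 mean over the time points lay between -1.32 and -1.17 and the Lyz1 24 h ratio between -1.17 and -1.11. Calls were less stable. With Agilent's processed signals Lyz2 was not called at 24 h (-1.69, adjusted p = 0.415) or in the mean (-1.32, adjusted p = 0.085), and limma called 0 genes in every KO/WT comparison (3018 at an unadjusted p under 0.05 in the mean). The methods' t-test on the same values gave -1.73 at 24 h without a call (adjusted p = 1). At 1 h and 4 h the change of the Lyz2 ratio from 0 h turned to 0.13 at both times under loess alone, under Aquantile and in the authors' matrix, and to 0.10 and 0.20 with the processed signals. The LPS change at 1 h turned to 0.059 for Lyz1 in WT and 0.030 for Lyz2 in KO under loess alone, and to 0.0028 for Lyz2 in KO under Aquantile. The Lyz1 fall in WT at 24 h was -0.29 under loess alone, without a call. Loess alone for LPS effects, loess with control spots and the fits without the 4 h arrays were chosen after seeing the data. No spot was saturated, so leaving out saturated spots gives the same values. Without the 4 h arrays Lyz1 was called at 24 h (-1.17). Apart from the quantile step, which limits the brightest values of Lyz2, the cause was not tested.

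The replicate number, which is also the dye orientation, was tried as a block (replicate block). The differences between replicates 1 and 2 correlated across genes between time points (r from 0.476 to 0.680 over 6 pairs of times, n = 36927 genes, which are not independent). The labels do not say that a number marks shared animals. With the block Lyz1 was called at 24 h (-1.17, adjusted p = 0.00488), in the mean (-0.38, adjusted p = 0.0106), for the change at 24 h (-1.26, adjusted p = 0.0368) and for LPS at 4 h in KO (-0.49, adjusted p = 0.0403). Lyz2 was called at 0 h (-0.90, adjusted p = 0.00241), 1 h (-0.98, adjusted p = 0.00528), 4 h (-1.09, adjusted p = 0.00197) and for the change at 24 h (-0.83, adjusted p = 0.0416). It moved the number of calls from 0 to 399 at 0 h, 0 to 218 at 1 h, 4 to 209 at 4 h, 8 to 214 at 24 h and 220 to 2239 in the mean, and for the change from 0 to 16 at 4 h and 0 to 78 at 24 h. The block changed no other call of the members.

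Leaving out 1 array at a time, the KO/WT ratio of Lyz1 lay between -0.050 and 0.23 unstimulated, -0.62 and 0.091 after 4 h, -1.21 and -1.13 after 24 h, and -0.47 and -0.29 in the mean, its change at 4 h between -0.71 and 5.64e-05. The Lyz2 ratio at 24 h lay between -1.85 and -1.61, and its change at 1 h between -0.24 and 0.080. The LPS effect on Lyz1 in WT lay between -0.10 and 0.054 after 1 h, -0.28 and 0.014 after 4 h, and -0.86 and -0.45 after 24 h, and in KO between -0.69 and -0.28 at 4 h. That on Lyz2 lay between -0.26 and 0.23 after 1 h and -1.08 and -0.62 after 4 h in WT, and between -0.23 and 0.044 at 1 h in KO. The other results kept their direction and their side of the threshold.

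Calls in the mean over the time points numbered 111 with all probes of a gene averaged and 38 without the 4 h arrays, against 220. At 24 h they numbered 14 under loess alone, Aquantile and the authors' matrix and 4 with probes averaged, against 8. With 1 array left out they numbered between 1 (Lyz2, without replicate 1 of 0 h) and 154 in the mean and between 0 and 10 at 24 h, and the Lyz2 mean was called in all 8 cases (-1.22 to -1.14, adjusted p from 0.00157 to 0.0105).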
